A study of Homo sapiens with 12 samples.

Results

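A pair of human carcinoma lines grown on their own, 786-O and PC3, were compared across all genes, with 3 arrays of each line. These are 6 of the 12 arrays of the series, and they were taken by their labels as the cultures without myoblasts. 786-O is a renal carcinoma line and was kept in RPMI1640 medium. PC3 is a prostate carcinoma line and was kept in F-12K medium, so that line and medium cannot be told apart in this comparison. The other 6 arrays hold the same lines (786-O in 3, PC3 in 3) with primary myoblasts of C57BL/6-Tg GFP mice (5 days old, from the limbs) in the upper insert of a transwell, apart from the cancer cells. There 30000 cancer cells were seeded 6 hours before 10000 myoblasts were added. RNA was taken 12 hours after plating in the cultures of the cancer cells alone, and after 12 hours of co-culture in the others. Whether the repeats came from separate cultures is not given in the labels, and the p-values cover the spread among these arrays, which may be technical. Each line is 1 line from 1 tumour, and a difference between them is not one between kidney and prostate cancer at large.

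A carcinoma line keeps part of the transcription factor program of its organ. Kidney epithelium is laid down by PAX2, PAX8, WT1 and SALL1, and prostate epithelium by HOXB13 and FOXA1 among others. HOX genes, which lie in clusters, keep a record of the position along the body axis from which a tissue came. 786-O is known as a line without functional VHL, the protein that marks the hypoxia-inducible factors HIF for destruction, and PC3 as a line without alpha-catenin protein. Alpha-catenin (from CTNNA1) ties cadherin junctions to actin.

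The signals on the arrays of each line nearly coincided. The correlation of log2 signals between arrays of 1 line was 0.998 or 0.999, the median signal was 5.56 to 5.60 on the 786-O arrays and 5.46 to 5.49 on the PC3 arrays, and 39.8% to 39.9% of probe sets on the 786-O arrays and 39.7% to 39.8% on the PC3 arrays reached a signal of 32. Signals are linear intensities, and differences are given as log2 of 786-O minus log2 of PC3 with the standard error of the limma fit (3 arrays each), so that a negative value means higher in PC3. A gene was called where the adjusted p was under 0.05 and the difference at least 2-fold. A signal of 16 was taken as the floor. Where the mean of a line lay under it, the fold is a lower bound against 16 ("at least"), and a signal under 16 means only that no level could be read there.

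Of 12486 genes tested, 4032 (32.3%) were called, 1796 (14.4%) higher in 786-O and 2236 (17.9%) higher in PC3, and the median difference over all genes was 0.0011. With no fold threshold 9934 (79.6%) would have been called. Arrays of the lines did not overlap for 10407 genes (83.3%), so that lack of overlap alone marks little here. In 478 genes (3.83%) all 3 arrays of 786-O reached 32 while all 3 of PC3 lay under 16, and in 404 (3.24%) it was the other way round. Of the called genes, 146 had a mean under 16 in both lines, and no fold is given for such genes.

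**Figure D1:**
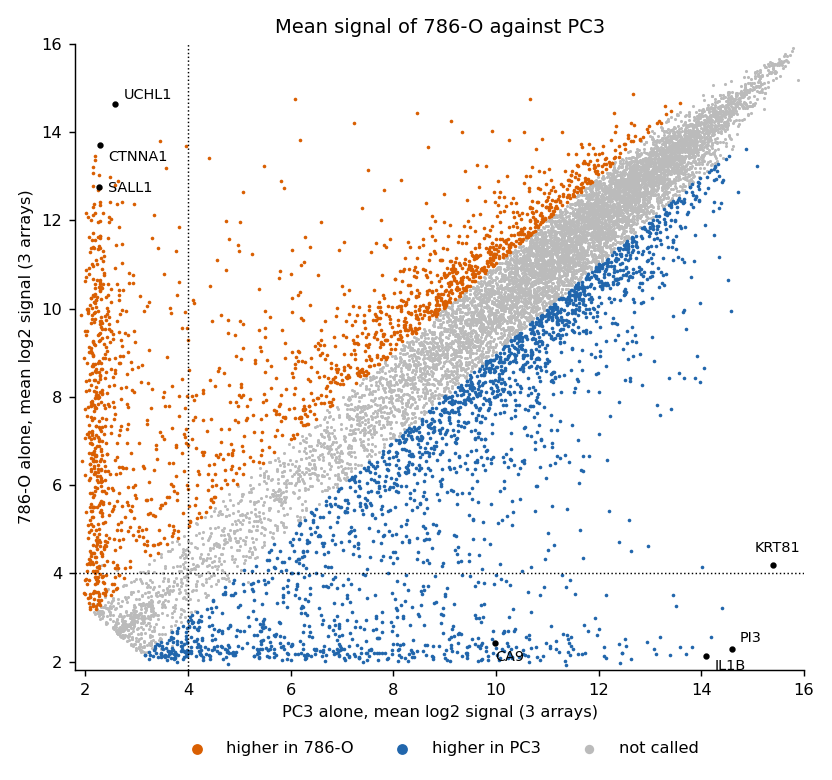
Mean log2 signal of each gene in 786-O (vertical axis) against PC3 (horizontal axis), over 3 arrays each. Called genes are coloured by the line in which they were higher, the others are grey, and the dotted lines mark the floor of 16. CTNNA1, UCHL1 and SALL1 lie at the upper left, with PC3 under the floor, and IL1B, PI3 and KRT81 at the lower right.

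CTNNA1, for which PC3 is known as deficient, stood out among 20 genes often altered in tumours, all of which passed the filter on dim signals. 2 of them were higher in 786-O, 1 was higher in PC3 and 17 were not called, against 14.4% and 17.9% of all genes. The median difference was 0.28. CTNNA1 had signals of 13427, 14014 and 12749 in 786-O, against 4.63, 4.66 and 5.29 in PC3, where all 3 arrays lay at the bottom of the scale. The fold was at least 837 (difference 11.43 ± 0.10, adjusted p = 4.07e-10), and 4 probe sets of the gene that passed the filter gave differences of 7.42 to 11.43.

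MYC, the growth-promoting transcription factor, had 6102, 6166 and 6116 in 786-O and 2147, 3001 and 3213 in PC3 (1.16 ± 0.14). CDKN2B, which encodes the CDK inhibitor p15, was the member higher in PC3, with 329, 341 and 375 in 786-O and 1183, 1107 and 935 in PC3 (-1.62 ± 0.11). Its neighbour CDKN2A, which encodes p16 and p14ARF, was not called. It had 2383, 2463 and 2538 in 786-O and 2179, 2309 and 2326 in PC3 (0.12 ± 0.05, adjusted p = 0.07004). Another CDKN2A probe set that passed the filter differed by 0.81. VHL itself was dim and was not called either, with 54.1, 114 and 86.3 in 786-O and 64.3, 55.2 and 41.8 in PC3 (0.62 ± 0.29, adjusted p = 0.0851), and the second VHL probe set lay under the floor in both lines. The array measures RNA, so it does not bear on whether the VHL protein works. The chromatin genes of the 3p arm that kidney cancers often mutate, PBRM1, BAP1 and SETD2, differed by 0.27, 0.89 and -0.03 and were not called. Another BAP1 probe set that passed the filter differed by 1.13.

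The genes next to CTNNA1, CDKN2A and VHL on their chromosomes were read off in the order of the reference annotation, 5 protein-coding genes to each side. Next to CTNNA1 on chromosome 5, low values in PC3 reached over a run of neighbouring genes. LRRTM2, which lies within CTNNA1 and encodes a synaptic adhesion protein, had 116, 115 and 122 in 786-O and 4.798, 4.79 and 4.74 in PC3 (at least 7.36-fold). SIL1, the next gene and a nucleotide exchange factor of the chaperone BiP in the endoplasmic reticulum, had 252, 284 and 289.5 in 786-O and 7.72, 7.71 and 7.66 in PC3 (at least 17.2-fold, 5.16 ± 0.11). The genes that enclose these 3 were present at like levels in both lines. On one side HSPA9, the mitochondrial HSP70, had 19804, 20125 and 19869 in 786-O and 23678, 24219 and 24398 in PC3, and on the other MATR3, a nuclear matrix protein, had 21099, 21070.00 and 22543 in 786-O and 20433, 19459.5 and 19619 in PC3. Further out, EGR1, an immediate early transcription factor, was 63.1-fold higher in 786-O (20864, 23194 and 22724, against 331, 329 and 403 in PC3), while ETF1, KDM3B and PAIP2 were not called and REEP2 differed by 1.25.

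Around CDKN2A on chromosome 9, MTAP, an enzyme of methionine salvage, was present in both lines (1915, 1985 and 2081 in 786-O, 1793, 1565 and 1541 in PC3), and ELAVL2, an RNA-binding protein of neurons, was higher in PC3 (-2.88). Beside VHL, IRAK2 (-1.19) and PRRT3 (-2.74) were higher in PC3, and EMC3, FANCD2, BRK1, TATDN2 and SEC13 were not called.

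**Figure D2:**
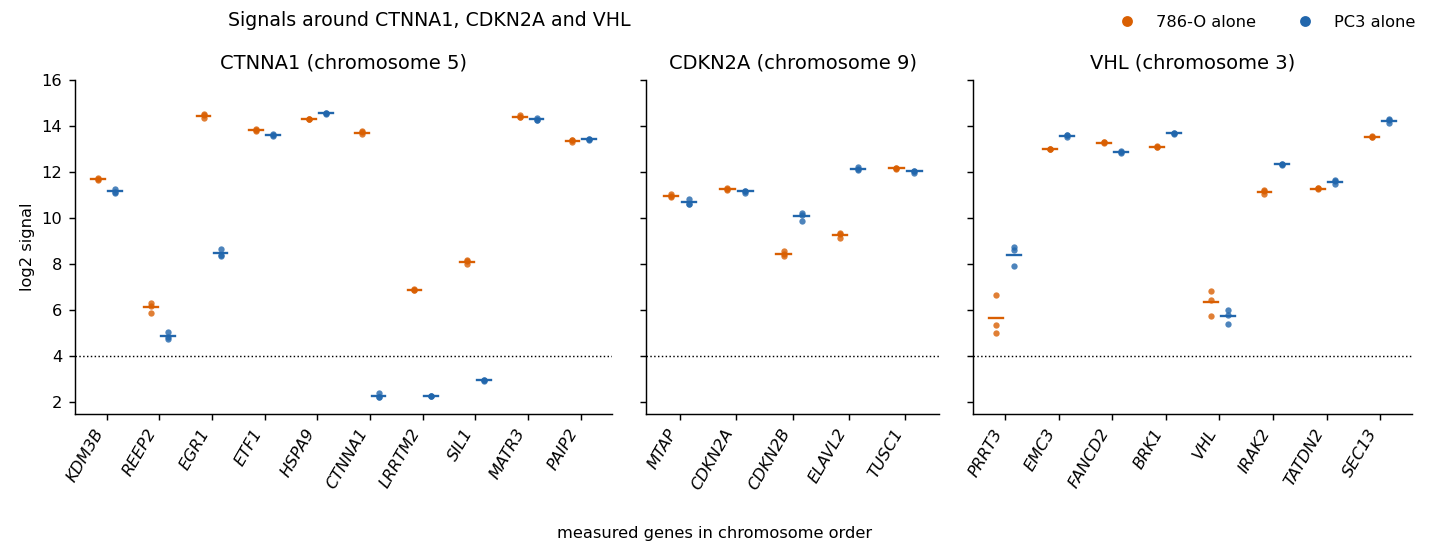
Log2 signal on each array of 786-O (left point of each pair, orange) and PC3 (right point, blue) for CTNNA1, CDKN2A and VHL and their measured neighbours in chromosome order, with a dash at the mean of 3 arrays and the floor of 16 dotted. In the CTNNA1 panel 3 adjacent genes, CTNNA1, LRRTM2 and SIL1, lie under the floor in PC3; in the other panels CDKN2B, ELAVL2, PRRT3 and IRAK2 are higher in PC3 by over 2-fold.

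Genes induced by DNA damage did not differ in 1 direction between the lines. Of 22 listed, 21 passed the filter, 5 were higher in 786-O, 2 were higher in PC3 and 14 were not called, against 14.4% and 17.9% of all genes called in these directions. The median difference was 0.30. BTG2, an antiproliferative factor, had 585, 537 and 551 in 786-O and 61.5, 23.2 and 53.5 in PC3 (3.72 ± 0.34), FAS, the death receptor, 2284, 2256 and 2219.7 in 786-O and 285, 305 and 314 in PC3 (2.90 ± 0.07), and SESN1, which restrains mTORC1, 527, 577 and 530.04 in 786-O and 98.7, 94.6 and 83.9 in PC3 (2.56 ± 0.10). The proapoptotic BAX was 2.41-fold higher in 786-O. The repair genes DDB2 (-1.22) and XPC (-1.19) were higher in PC3. Among genes named after their values were seen, CDKN1A, which encodes the CDK inhibitor p21, had 4011, 3705 and 3967 in 786-O and 4063, 3721 and 3930.3 in PC3 and a difference near 0 (-0.00 ± 0.05), and MDM2, a ubiquitin ligase, differed by 0.35 and was not called.

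Of 21 regulators of the G1 phase, 20 passed the filter; 2 were higher in 786-O, 2 were higher in PC3 and 16 were not called, against 14.4% and 17.9% of all genes called in these directions. CCND2, a D-type cyclin, had 9357, 9151 and 9490.5 in 786-O and 32.5, 8.98 and 5.75 in PC3, where the arrays spread across the floor (at least 460.5-fold, 9.62 ± 0.57). Its partner CDK6 had 16489, 16552 and 16492 in 786-O and 4835, 5017 and 5549 in PC3 (1.69 ± 0.05). CDKN1C, which encodes the CDK inhibitor p57, was higher in PC3, with 12.8, 15.4 and 19.5 in 786-O and 92.9, 72.01 and 82.9 in PC3 (at least 4.804-fold).

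Of 22 kidney lineage genes listed, 12 passed the filter. Of these, 8 were higher in 786-O, 3 were higher in PC3 and 1 was not called, against 14.4% and 17.9% of all genes. The median difference was 2.67 (1.23 with signals under 16 set to 16). Among the 7 with a level over the floor on at least 1 array of each line, 4 were higher in 786-O and 2 were higher in PC3. SALL1, a zinc finger factor of the nephron progenitors, had 7054, 6779 and 7002 in 786-O and 4.87, 4.84 and 4.77 in PC3 (at least 434-fold). PAX8, the paired box factor used in pathology to recognise kidney tumours, had 790.2, 753 and 743 in 786-O and 14.7, 14.7 and 18.2 in PC3 (at least 45.6-fold, 5.59 ± 0.12). Its relative PAX2 went the same way, with 38.9, 43.96 and 46.002 in 786-O and 4.302, 4.29 and 4.27 in PC3. WT1, which is known from podocytes and Wilms tumours, was over the floor in both lines (3341, 3264 and 3494 in 786-O and 1637, 1604 and 1649 in PC3, 1.05 ± 0.05). CDH6, the cadherin of the embryonic proximal tubule, had 539, 473 and 457 in 786-O and 4.65, 7.47 and 7.35 in PC3 (at least 30.5-fold).

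The tubule enzymes did not go one way. GGT1, gamma-glutamyl transferase of the brush border, had 2347, 2613 and 2255 in 786-O and 38.6, 36.1 and 38.5 in PC3 (5.99 ± 0.09), although near-identical relatives of this gene may share its probes. MME, the brush-border peptidase neprilysin, had 112, 99.4 and 105 in 786-O and 17.7, 13.4 and 13.6 in PC3 (at least 6.37-fold). ANPEP, aminopeptidase N of the same membrane, was 14.3-fold higher in PC3 (501, 475 and 533 in 786-O, 7258, 6835 and 7449 in PC3). Likewise SIX2 and OSR1, factors that mark the earliest nephron progenitors, were high in the prostate line and not in the renal one. SIX2 had 24.1, 10.3 and 12.3 in 786-O and 2659, 3071 and 2588 in PC3 (at least 151-fold), and OSR1 had 8.94, 8.39 and 6.95 in 786-O and 1079, 1404 and 1194 in PC3 (at least 76.1-fold). The 10 members that did not pass the filter, the transporters and segment markers AQP1, LRP2, CUBN, SLC22A6, SLC34A1, UMOD and CDH16 and the factors LHX1, HNF4A and POU3F3, reached 6.09 at most on any array of either line.

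Of 12 markers used for clear cell kidney carcinoma, 9 passed the filter. Of these, 4 were higher in 786-O, 1 was higher in PC3 and 4 were not called, against 14.4% and 17.9% of all genes. Of the 9, 1 lay under the floor on all 786-O arrays and 3 on all PC3 arrays. Among the 5 with a level over the floor on at least 1 array of each line, 1 was higher in 786-O and none was higher in PC3. CP, the copper protein ceruloplasmin, had 2611, 2543 and 2684 in 786-O and 4.74, 4.73 and 4.79 in PC3 (at least 163-fold). CD70, a TNF family ligand, had 1614, 1781 and 1816 in 786-O and 61.98, 109.8 and 119 in PC3 (4.22 ± 0.24). HAVCR1, the kidney injury molecule, lay around the floor in 786-O (13.6, 32.5 and 20.3) and under it in PC3 (4.72, 4.54 and 4.61). The marker that went against the list was CA9, carbonic anhydrase IX, which in clear cell tumours is turned on by HIF: it had 5.35, 5.33 and 5.32 in 786-O and 980.1, 1044 and 1018 in PC3. The mean of the PC3 arrays was at least 63.4-fold higher, and all 786-O arrays lay under the floor (-7.57 ± 0.10, adjusted p = 1.10e-09). PLIN2, NNMT, ANGPTL4 and SCARB1 differed by 0.51, 0.37, 0.47 and -0.01 and were not called.

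The prostate list was carried by PC3 only in part. Of 19 members, 9 passed the filter. Of these, 1 was higher in 786-O, 5 were higher in PC3 and 3 were not called, against 14.4% and 17.9% of all genes. The median difference was -1.49. Of the 9, 3 lay under the floor on all 786-O arrays and 1 on all PC3 arrays. Among the 5 with a level over the floor on at least 1 array of each line, none was higher in 786-O and 3 were higher in PC3. HOXB13, the homeobox factor of the prostate, had 4.49, 4.15 and 4.14 in 786-O and 274, 314 and 310.3 in PC3 (at least 18.7-fold). SPDEF, an ETS factor of secretory epithelium, had 8.68, 13.8 and 10.7 in 786-O and 145, 149 and 121 in PC3 (at least 8.604-fold), and FOXA1, a factor that opens chromatin, had 164, 157 and 168 in 786-O and 723, 611 and 595 in PC3 (-1.98 ± 0.10). The metalloreductases STEAP1 and STEAP2 were 3.65-fold and 2.803-fold higher in PC3, yet 786-O also had 2255, 2045 and 2176 for STEAP1.

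The member higher in 786-O was TRPM8, the cold-sensing channel known from prostate, which had 49.7, 48.9 and 29.2 in 786-O and 5.03, 4.98 and 4.94 in PC3. Most of the secreted and surface products that define prostate epithelium could not be seen in either line. KLK2, KLK3 (which encodes PSA), KLK4, KLK11, ACP3, MSMB, TGM4, NPY, TMPRSS2 and PSCA did not pass the filter and reached 5.19 at most on any of the 6 arrays. FOLH1, which encodes PSMA, AMACR and SLC45A3 were not called (-0.46, -0.32 and -0.67).

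Of 38 HOX genes listed, 31 passed the filter. Of these, 22 were higher in 786-O, 4 were higher in PC3 and 5 were not called, against 14.4% and 17.9% of all genes. The median difference was 2.57 (2.57 with signals under 16 set to 16). Among the 18 with a level over the floor on at least 1 array of each line, 11 were higher in 786-O and 2 were higher in PC3. In the HOXD cluster on chromosome 2 all 7 measured genes were higher in 786-O, and 6 of them lay under the floor on all 3 PC3 arrays. HOXD13 had 3807, 4132 and 4047 in 786-O and 5.31, 4.52 and 4.49 in PC3 (at least 249.6-fold). HOXD10 had 4048, 4584 and 4359 in 786-O and 5.49, 5.48 and 5.48 in PC3 (at least 270.3-fold), and HOXD3, HOXD4, HOXD9 and HOXD11 were likewise at least 29.6, 20.9, 58.8 and 38.6-fold higher. HOXD8 was the exception in that PC3 kept a level over the floor, with 420.4, 375 and 419 in 786-O and 59.1, 83.7 and 64.2 in PC3 (2.57 ± 0.15).

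The other clusters were mixed. In the HOXA cluster on chromosome 7, 6 of 9 measured genes were higher in 786-O and none lay under the floor in PC3. HOXA9 and HOXA11, near the far end of the cluster, were not called (0.75 and 0.08), and HOXA13, the last gene, was 8.57-fold higher in PC3 (64.1, 108 and 115 in 786-O, 878, 833 and 684 in PC3). In the HOXB cluster on chromosome 17, HOXB2, HOXB4 and HOXB8 lay under the floor in PC3 and reached 641 to 875, 196 to 243 and 839 to 944 in 786-O. HOXB3, HOXB5 and HOXB9 were not called, and HOXB13 at the end of the cluster was the reverse. In the HOXC cluster on chromosome 12, HOXC4 (3.83), HOXC9 (4.00), HOXC10 (1.61) and HOXC11 (4.49) were higher in 786-O, against HOXC5 (-3.04) and HOXC13 (-1.82) in PC3. The genes numbered 13 were thus higher in PC3 in the A, B and C clusters, and higher in 786-O in the D cluster.

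**Figure D3:**
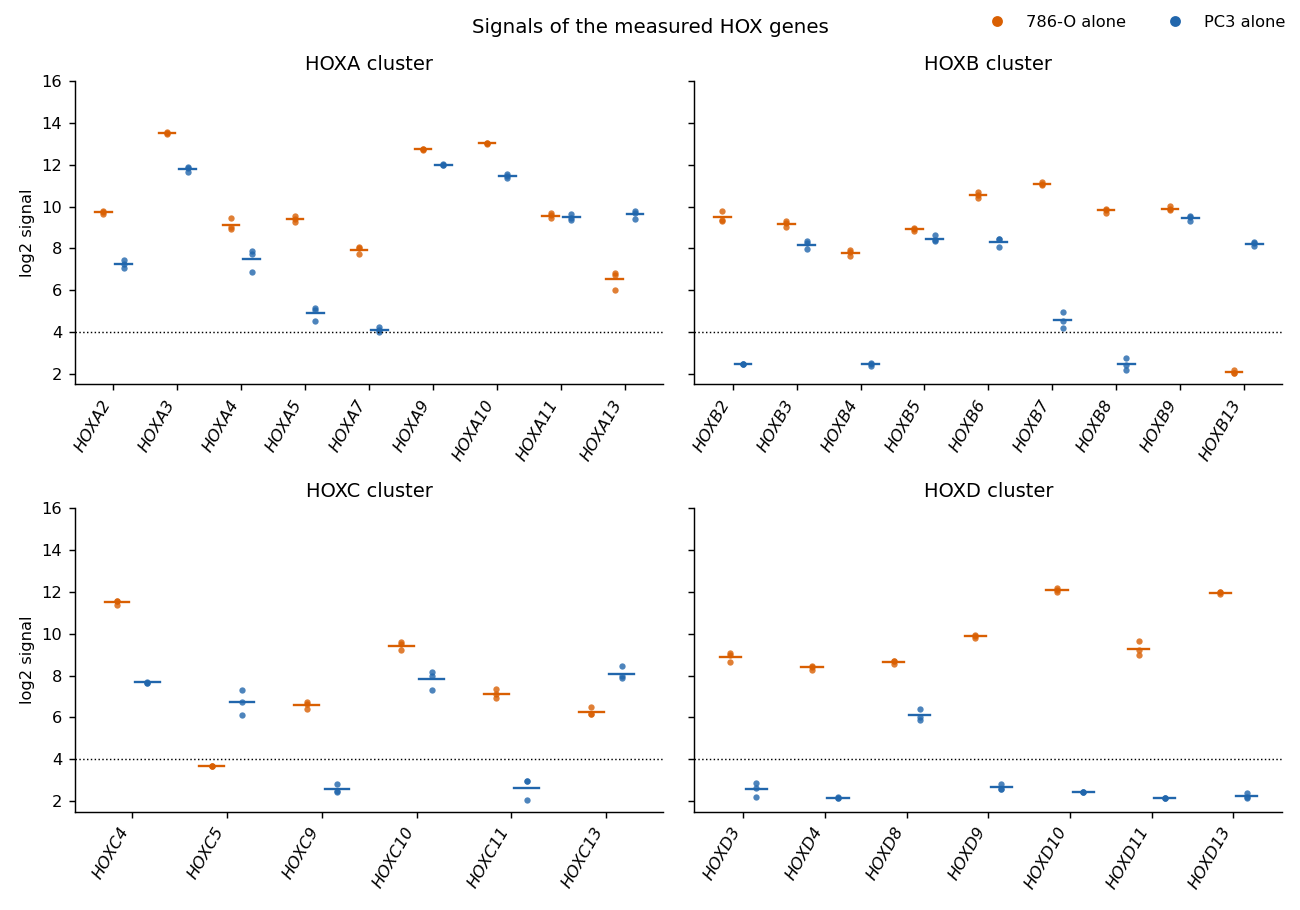
Log2 signal of the measured HOX genes on each array, 786-O (left point of each pair, orange) and PC3 (right point, blue), in the order of their numbers within each cluster, with the floor of 16 dotted. Over the HOXD cluster 786-O stays between 312 and 4584 while PC3 lies under the floor for 6 of 7 genes; HOXA13, HOXB13 and HOXC13 are higher in PC3.

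Of 37 epithelial genes listed, 24 passed the filter. Of these, 1 was higher in 786-O, 16 were higher in PC3 and 7 were not called, against 14.4% and 17.9% of all genes. The median difference was -1.85 (-1.29 with signals under 16 set to 16). Of the 24, 10 lay under the floor on all 786-O arrays and so passed the filter through PC3; among the 13 with a level over the floor on at least 1 array of each line, none was higher in 786-O and 6 were higher in PC3. EPCAM, the epithelial adhesion molecule, had 5.93, 6.74 and 5.69 in 786-O and 4321, 3646 and 4008 in PC3 (at least 249-fold). The keratin KRT7 had 5.45, 5.45 and 5.44 in 786-O and 7966, 8007 and 7526 in PC3 (at least 489-fold), whereas KRT19 was over the floor in both lines, with 284, 366 and 386 in 786-O and 12733, 16197 and 16464 in PC3 (-5.46 ± 0.14). ESRP2, a splicing factor of epithelial isoforms, had 10.1, 4.31 and 4.29 in 786-O and 1439, 1556 and 1824 in PC3 (at least 99.9-fold). SPINT1, a membrane-bound inhibitor of serine proteases, was at least 23.8-fold higher in PC3. The member that went the other way was DSP, desmoplakin, the plaque protein of desmosomes, with 4284, 4892 and 4658 in 786-O and 4.04, 4.03 and 3.99 in PC3 (at least 288-fold). CDH1, which encodes E-cadherin, and the epithelial regulators ESRP1, GRHL2, OVOL1 and OVOL2 did not pass the filter and lay under 16 in both lines, and KRT8 and KRT18, which were named after their values were seen, were not called (0.25 and -0.18).

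Mesenchymal genes did not mirror this. Of 25 listed, 17 passed the filter; 3 were higher in 786-O, 4 were higher in PC3 and 10 were not called, against 14.4% and 17.9% of all genes called in these directions. The repressor ZEB2 had 2589, 2618 and 2957 in 786-O and 152, 75.7 and 48.9 in PC3 (5.04 ± 0.37), and TWIST2 20.7, 82.3 and 40.3 in 786-O and 8.05, 12.6 and 8.68 in PC3. TWIST1, its relative, was higher in PC3 (1781, 1894 and 1534 in 786-O, 5698, 5594 and 5723 in PC3, -1.71 ± 0.08). CDH11, a cadherin of mesenchymal and bone-forming cells, had 4.43, 4.43 and 4.41 in 786-O and 11723, 11404 and 9164 in PC3 (at least 669-fold), and S100A4, a calcium-binding protein linked to motility, had 26.1, 26.7 and 17.2 in 786-O and 5949, 6715 and 6271 in PC3 (-8.11 ± 0.17). VIM, CDH2, ZEB1 and AXL, named after their values were seen, differed by 0.84, 0.06, 0.11 and -0.03 and were not called.

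Of 19 genes of the adherens junction, 14 passed the filter, and 4 were higher in 786-O, 3 were higher in PC3 and 7 were not called, with the same shares of all genes beside them (14.4% and 17.9%). Beside CTNNA1, CDH6 and CDH11, the nectin NECTIN3 (3623, 3600.4 and 3836 in 786-O, 1896, 1754 and 1536 in PC3) and afadin from AFDN (1.01) were higher in 786-O, and JUP, plakoglobin, was higher in PC3 (14.98, 16.3 and 22.5 in 786-O, 117, 90.9 and 124 in PC3, -2.63 ± 0.20). CTNNB1 and CTNND1, which encode beta-catenin and p120 catenin and were named after their values were seen, differed by 0.11 and -0.34 and were not called. Of 20 integrin genes, 14 passed the filter. Of these, 6 were higher in 786-O, 3 were higher in PC3 and 5 were not called, against 14.4% and 17.9% of all genes. ITGB3, the partner of the alpha V chain in the vitronectin receptor, had 1113, 978 and 1021 in 786-O and 13.2, 11.8 and 12.7 in PC3 (at least 64.7-fold), and ITGAV itself 10419, 10136 and 10713 in 786-O and 4039.9, 3680.1 and 3195 in PC3 (1.52 ± 0.08). ITGA4, a chain of the VCAM1 receptor, was at least 16.5-fold higher in 786-O, and ITGA5, of the fibronectin receptor, 2.25-fold. ITGB4, the laminin-binding chain of hemidesmosomes, had 5.38, 5.96 and 4.88 in 786-O and 1139, 1064 and 1359.9 in PC3 (at least 73.8-fold), and ITGA2, of the collagen receptor, 413, 317 and 398 in 786-O and 4745, 3813 and 3687 in PC3 (-3.44 ± 0.13).

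The extracellular matrix differed in 32 of the 36 measured genes of 44 listed. Of these 36, 14 were higher in 786-O, 18 were higher in PC3 and 4 were not called, against 14.4% and 17.9% of all genes. Of those higher in 786-O, COL4A1 and COL4A2, the main chains of basement membrane collagen, had 9976, 9817 and 9757 and 6225, 5981 and 5700.4 in 786-O, against 923, 738 and 719 and 1213, 1009 and 1220.5 in PC3 (3.64 ± 0.09 and 2.38 ± 0.08). SPP1, osteopontin, had 10663, 10621 and 10273 in 786-O and 4.64, 4.43 and 4.69 in PC3 (at least 657-fold). VCAN, the proteoglycan versican, had 10039.9, 9889 and 8940.3 in 786-O and 42.4, 37.99 and 54.4 in PC3 (7.76 ± 0.14), and TGFBI, a secreted integrin ligand induced by TGF-beta, 27256, 26145 and 29754 in 786-O and 1566, 1660.2 and 1629.6 in PC3 (4.10 ± 0.05). SPARC, osteonectin, which was named after its values were seen, had 13859, 12771 and 13056 in 786-O and 36.2, 7.75 and 13.6 in PC3 (at least 629.6-fold).

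Of the matrix genes higher in PC3, COL5A1, a chain of collagen V, had 5.61, 5.74 and 7.04 in 786-O and 1765, 1385 and 1649.9 in PC3 (at least 99.5-fold), and its partner chain COL5A2 20.8, 15.1 and 17.6 in 786-O and 1772, 1571 and 1577 in PC3 (-6.53 ± 0.14). FBN1, fibrillin of elastic microfibrils, had 44.3, 44.2 and 39.5 in 786-O and 1774, 1677 and 1745 in PC3 (-5.35 ± 0.09), and FBN2 was 4.43-fold higher in PC3. COL13A1, a collagen of the plasma membrane, had 47.6, 39.4 and 27.4 in 786-O and 6657, 5775 and 6106 in PC3 (-7.37 ± 0.19), and COL12A1, which coats collagen fibrils, 302, 264 and 278 in 786-O and 3806, 3408 and 3407 in PC3 (-3.65 ± 0.08).

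**Figure D4:**
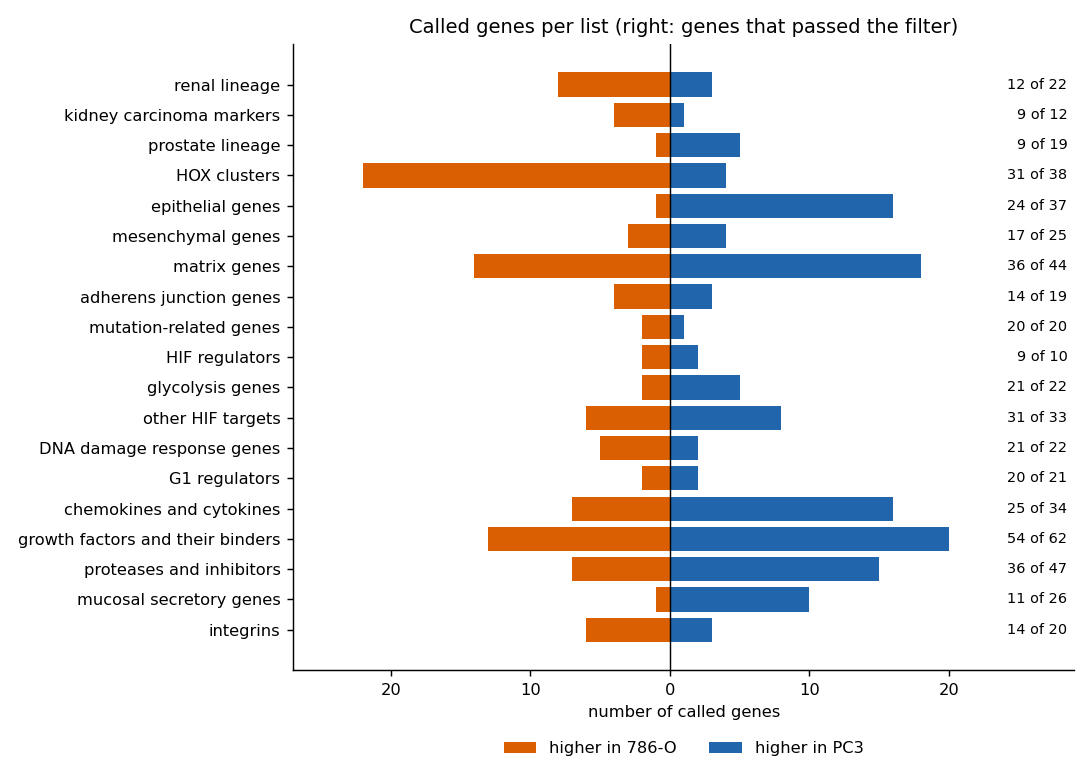
Number of called genes in each gene list, drawn to the left for higher in 786-O (orange) and to the right for higher in PC3 (blue), with the number that passed the filter on dim signals out of the number listed given at the right. The HOX and renal lineage lists lean to 786-O (22 against 4 and 8 against 3). The epithelial and chemokine lists lean to PC3 (1 against 16 and 7 against 16). These counts include members under the floor in 1 line. Among members over the floor on at least 1 array of each line, HOX counts were 11 against 2 and renal counts 4 against 2. Epithelial counts were there 0 against 6 and chemokine counts 3 against 9.

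HIF is a pair of subunits: an oxygen-sensitive alpha chain, from HIF1A or EPAS1, and ARNT. EGLN enzymes hydroxylate the alpha chain, VHL then binds it, and in a line without VHL it escapes this. Of 10 regulators, 9 passed the filter; 2 were higher in 786-O, 2 were higher in PC3 and 5 were not called, where 14.4% and 17.9% of all genes were called. EPAS1, which encodes HIF-2 alpha, was lower in the VHL-deficient line at the RNA level, with 2882, 2599.5 and 2593 in 786-O and 6917, 6678 and 6895 in PC3 (-1.35 ± 0.05). HIF1A had 9464, 9246 and 9592 in 786-O and 22624, 18860.4 and 18248 in PC3 (-1.07 ± 0.08). EGLN3, a HIF hydroxylase that is itself a HIF target, had 1051, 1077 and 856 in 786-O and 5.603, 6.24 and 9.49 in PC3 (at least 61.8-fold), and ARNT2, a relative of ARNT, lay around the floor in 786-O (17.4, 17.7 and 14.96) and under it in PC3 (4.51, 4.598 and 4.47), and was not called with signals under 16 set to 16 (0.09, adjusted p = 0.101). EGLN1, EGLN2, HIF1AN and ARNT were not called (-0.29, 0.50, 0.24 and 0.16). Probe sets of 1 gene did not all give the same value. The 3 of EGLN1 that passed the filter differed by -1.70 to -0.29, and the 4 of ARNT by -0.67 to 0.16.

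HIF targets did not differ in 1 direction. Of 33 targets outside glycolysis, 31 passed the filter; 6 were higher in 786-O, 8 were higher in PC3 and 17 were not called, with a median of -0.03. Of 22 glycolysis genes, 21 passed; 2 were higher in 786-O, 5 were higher in PC3 and 14 were not called, with a median of -0.15. Of all genes tested, 14.4% were called higher in 786-O and 17.9% higher in PC3. Among the members some very large differences stood in both directions. Beside EGLN3, the glucose transporter SLC2A3 had 1380.1, 1412 and 1335 in 786-O and 6.22, 6.02 and 7.78 in PC3 (at least 85.96-fold), and VLDLR, the lipoprotein receptor, 309, 282 and 334 in 786-O and 4.33, 4.31 and 4.31 in PC3 (at least 19.2-fold). CXCR4, the chemokine receptor, had 2773, 2714 and 2906 in 786-O and 19.03, 29.5 and 54.9 in PC3 (6.48 ± 0.34). DDIT4 and TGFA, an inhibitor of mTORC1 and an EGF receptor ligand, were 2.78-fold and 2.55-fold higher in 786-O, and CA12, a relative of CA9, 2.43-fold.

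In PC3, CA9 was joined by the mitophagy receptor BNIP3L, with 2351, 2084 and 2504 in 786-O and 12579, 11953 and 11558 in PC3 (-2.38 ± 0.07), by the demethylase KDM3A (1397, 1455 and 1419 in 786-O, 4871, 4760.3 and 4653 in PC3, -1.74 ± 0.04) and by ANKRD37 (-2.31), BHLHE41 (-2.17) and the disulfide-forming oxidase ERO1A (-1.37). Of the glycolytic enzymes, ALDOC had 41.8, 47.9 and 53.5 in 786-O and 899.8, 996 and 974 in PC3 (-4.33 ± 0.12), and PFKFB4, which sets the level of the activator of phosphofructokinase, 240.1, 159.99 and 166 in 786-O and 1914, 1655 and 1593 in PC3 (-3.21 ± 0.17). The platelet phosphofructokinase PFKP was 3.01-fold higher in 786-O and the liver form PFKL 2.29-fold higher in PC3. SLC2A1, LDHA and VEGFA, the best known HIF targets and named after their values were seen, were not called: VEGFA had 8310.3, 8043 and 8728 in 786-O and 6581, 5381 and 4656 in PC3 (0.61 ± 0.12), SLC2A1 differed by 0.82 and LDHA by -0.04.

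The promoters of 3 of these targets are printed because they are the ones with the largest differences that have an entry in the RefSeq promoter table (GRCh38.p14), from 250 bases before the start of the gene to 50 after it, 5′ to 3′ on the gene's strand. Capitals mark the core of the HIF response element, searched as ACGTG or GCGTG on both strands.
CA9, chromosome 9, chr9:35673678-35673977, plus strand: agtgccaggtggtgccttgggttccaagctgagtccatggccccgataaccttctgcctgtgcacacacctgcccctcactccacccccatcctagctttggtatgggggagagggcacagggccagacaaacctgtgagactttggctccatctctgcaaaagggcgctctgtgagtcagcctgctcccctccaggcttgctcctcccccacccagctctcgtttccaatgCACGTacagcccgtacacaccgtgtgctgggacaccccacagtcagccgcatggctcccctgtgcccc
EGLN3, chromosome 14, chr14:33951025-33951324, minus strand: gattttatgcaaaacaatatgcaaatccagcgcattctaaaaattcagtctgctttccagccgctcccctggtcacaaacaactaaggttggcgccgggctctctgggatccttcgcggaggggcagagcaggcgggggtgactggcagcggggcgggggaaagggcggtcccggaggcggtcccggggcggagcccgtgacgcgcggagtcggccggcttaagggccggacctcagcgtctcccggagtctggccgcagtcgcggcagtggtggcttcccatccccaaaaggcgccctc
CXCR4, chromosome 2, chr2:136118100-136118399, minus strand: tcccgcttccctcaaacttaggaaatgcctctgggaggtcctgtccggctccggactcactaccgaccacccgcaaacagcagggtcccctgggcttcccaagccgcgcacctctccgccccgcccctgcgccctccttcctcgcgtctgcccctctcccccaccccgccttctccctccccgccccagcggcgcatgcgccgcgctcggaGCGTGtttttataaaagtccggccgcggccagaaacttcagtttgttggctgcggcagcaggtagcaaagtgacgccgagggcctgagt
In the CA9 window the letters stand on the opposite strand, and the match begins 18 bases before the start. The CXCR4 window holds 1 match, 39 bases before the start, and the EGLN3 window holds none. A match was present in 36 of 47 listed HIF target promoters (76.6%), against 13213 of all 27305 promoters in the table (48.4%). It was present in 4 of the 7 called targets higher in 786-O that had an entry and in 11 of the 12 higher in PC3. A match is a run of letters, not a bound site.

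Of 34 chemokines and cytokines, 25 passed the filter. Of these, 7 were higher in 786-O, 16 were higher in PC3 and 2 were not called, against 14.4% and 17.9% of all genes. The median difference was -3.50 (-2.66 with signals under 16 set to 16). Of the 25, 8 lay under the floor on all 786-O arrays and 5 on all PC3 arrays; among the 13 with a level over the floor on at least 1 array of each line, 3 were higher in 786-O and 9 were higher in PC3. IL1B, the inflammatory cytokine interleukin-1 beta, had 4.43, 4.397 and 4.33 in 786-O and 16156, 17706 and 18434 in PC3 (at least 1088-fold, adjusted p = 3.53e-10). IL18 and IL33, cytokines of the same family, had 6.41, 7.56 and 7.003 and 4.57, 4.58 and 4.56 in 786-O, against 2228, 2152 and 2112 and 1392, 1159 and 1125 in PC3 (at least 135 and 76.2-fold). These 3 lay under the floor on every 786-O array. IL1A, of the same family and named after its values were seen, lay under the floor in both lines and was not called (4.79, 4.81 and 4.78 in 786-O and 7.18, 6.97 and 11.6 in PC3). The neutrophil chemokine CXCL6 had 5.07, 5.104 and 5.04 in 786-O and 2449.5, 2116 and 1859.7 in PC3 (at least 133.02-fold), and CXCL1, which binds the same receptor, 31.2, 25.6 and 18.3 in 786-O and 8606, 7765 and 7505 in PC3 (-8.34 ± 0.19).

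CXCL8 and IL6, named after their values were seen, were present in both lines and higher in PC3. CXCL8 had 707, 718 and 830.5 in 786-O and 15688, 13201 and 11271 in PC3 (-4.15 ± 0.12), and IL6 341, 418 and 437 in 786-O and 1293, 1454 and 1505 in PC3 (-1.83 ± 0.11). IL24 and the eosinophil chemokine CCL26 were at least 102 and 50.2-fold higher in PC3. Within the same chemokine family the direction was not uniform: CXCL5, a close relative of CXCL6, had 1652, 2012 and 2162 in 786-O and 6.202, 6.19 and 5.53 in PC3 (at least 121-fold). TNFSF10, the death ligand TRAIL, had 1670.2, 1511 and 1423 in 786-O and 7.19, 7.304 and 7.15 in PC3 (at least 95.7-fold). IL32 had 12627, 12885 and 12272 in 786-O and 1570.3, 1772 and 1936 in PC3 (2.84 ± 0.08), and IL11, a cytokine of the IL-6 family, 435, 384 and 422 in 786-O and 49.5, 49.3 and 48.9 in PC3 (3.07 ± 0.10). CCL2, the monocyte chemokine, had 49.3, 58.8 and 37.2 in 786-O and 4.45, 4.44 and 6.54 in PC3, and TSLP 94.5, 109 and 115 in 786-O and 4.402, 4.397 and 4.37 in PC3.

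Growth factors and the proteins that bind them were split. Of 62 listed, 54 passed the filter. Of these, 13 were higher in 786-O, 20 were higher in PC3 and 21 were not called, against 14.4% and 17.9% of all genes. The median was -0.46 (-0.20 with signals under 16 set to 16). Of the 54, 11 lay under the floor on all 786-O arrays and 9 on all PC3 arrays. Among the 36 over the floor on at least 1 array of each line, 6 were higher in 786-O and 11 in PC3. The antagonists DKK1, of WNT signalling, and FST, of activin, had 10.1, 7.88 and 9.99 and 4.39, 6.02 and 4.38 in 786-O, against 22186, 21713 and 21345 and 7515, 8948 and 9473 in PC3 (at least 1359 and 538-fold). NOG, an antagonist of BMPs, had 449.6, 410.1 and 503 in 786-O and 8589, 8807 and 8556 in PC3 (-4.26 ± 0.08). The ligands BMP2 (810.03, 668 and 768 in 786-O, 4.93, 5.26 and 5.39 in PC3, at least 46.6-fold) and BMP6 (at least 7.81-fold) were higher in 786-O, and so was DKK3, a relative of DKK1, with 2538, 2584 and 2516 in 786-O and 31.7, 31.6 and 31.9 in PC3 (6.33 ± 0.08).

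The binding proteins of insulin-like growth factors went in both directions. IGFBP4 had 6.27, 5.44 and 6.001 in 786-O and 18465, 18729.9 and 19034 in PC3 (at least 1171-fold), and IGFBP5 5.44, 5.501 and 6.203 in 786-O and 1093, 872 and 961 in PC3 (at least 60.7-fold). IGFBP7 had 8035, 7863 and 8322 in 786-O and 5.29, 6.37 and 5.18 in PC3 (at least 504-fold). Of ligands for the EGF receptor family, NRG1 had 953, 869 and 885 in 786-O and 5.01, 4.97 and 4.87 in PC3 (at least 56.3-fold), and EREG 8880.2, 8696 and 9696 in 786-O and 181, 177 and 187 in PC3 (5.64 ± 0.06). FGF1, acidic fibroblast growth factor, had 4.03, 4.03 and 4.02 in 786-O and 851, 843 and 733 in PC3 (at least 50.4-fold).

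Of 47 secreted or membrane proteases and their inhibitors, 36 passed the filter. Of these, 7 were higher in 786-O, 15 were higher in PC3 and 14 were not called, against 14.4% and 17.9% of all genes. The median was -0.46 (-0.05 with signals under 16 set to 16). Of the 36, 11 lay under the floor on all 786-O arrays and 4 on all PC3 arrays. Among the 21 over the floor on at least 1 array of each line, 3 were higher in 786-O and 6 in PC3. Both plasminogen activators were higher in PC3. PLAT, tissue plasminogen activator, had 19.7, 18.96 and 15.04 in 786-O and 17627, 15926 and 16282 in PC3 (-9.87 ± 0.12, adjusted p = 7.82e-10), and PLAU, urokinase, 943, 1091 and 936 in 786-O and 25545, 23593 and 24344 in PC3 (-4.63 ± 0.07). SERPINB2, an inhibitor of both, had 5.04, 9.32 and 10.8 in 786-O and 957, 746 and 758 in PC3 (at least 50.9-fold). SERPINB5, maspin, was at least 195-fold higher in PC3, and ADAM8, a metalloprotease of inflammation, at least 27.5-fold. The tissue inhibitor TIMP3 had 424, 462 and 427 in 786-O and 4.11, 4.11 and 4.103 in PC3 (at least 27.3-fold) and TIMP1 12654, 12928 and 12207 in 786-O and 30135, 29435 and 30278 in PC3 (-1.25 ± 0.03). MMP7, matrilysin, had 167, 185 and 194 in 786-O and 4.47, 8.22 and 5.49 in PC3, and MMP2, gelatinase A, 162, 320.04 and 296 in 786-O and 4.11, 8.91 and 7.29 in PC3 (at least 15.5-fold).

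Of 26 secretory genes of mucosal surfaces, 11 passed the filter. Of these, 1 was higher in 786-O and 10 were higher in PC3, against 14.4% and 17.9% of all genes. In those 10 all 786-O arrays lay under the floor, so that they passed the filter through PC3 and had to differ in that direction. Of the other 15, 13 lay under the floor on all arrays of both lines, and 2 had no probe set assigned to them alone. PI3, the elastase inhibitor elafin, had 4.56, 4.99 and 5.02 in 786-O and 25783, 24143 and 24811 in PC3 (at least 1556-fold). TFF1, a trefoil peptide of gastric mucus, had 4.53, 4.53 and 4.37 in 786-O and 13300.03, 12848 and 13911 in PC3 (at least 834-fold). AGR2, the disulfide isomerase that folds mucins, was at least 174-fold higher in PC3, S100P at least 349.5-fold, SLPI, a leukocyte protease inhibitor, at least 170.1-fold, and LCN2, lipocalin 2, at least 75.7-fold. Complement C3 was the member of this list higher in 786-O, with 348, 261 and 218 in 786-O and 5.59, 5.05 and 5.504 in PC3 (at least 16.9-fold).

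**Figure D5:**
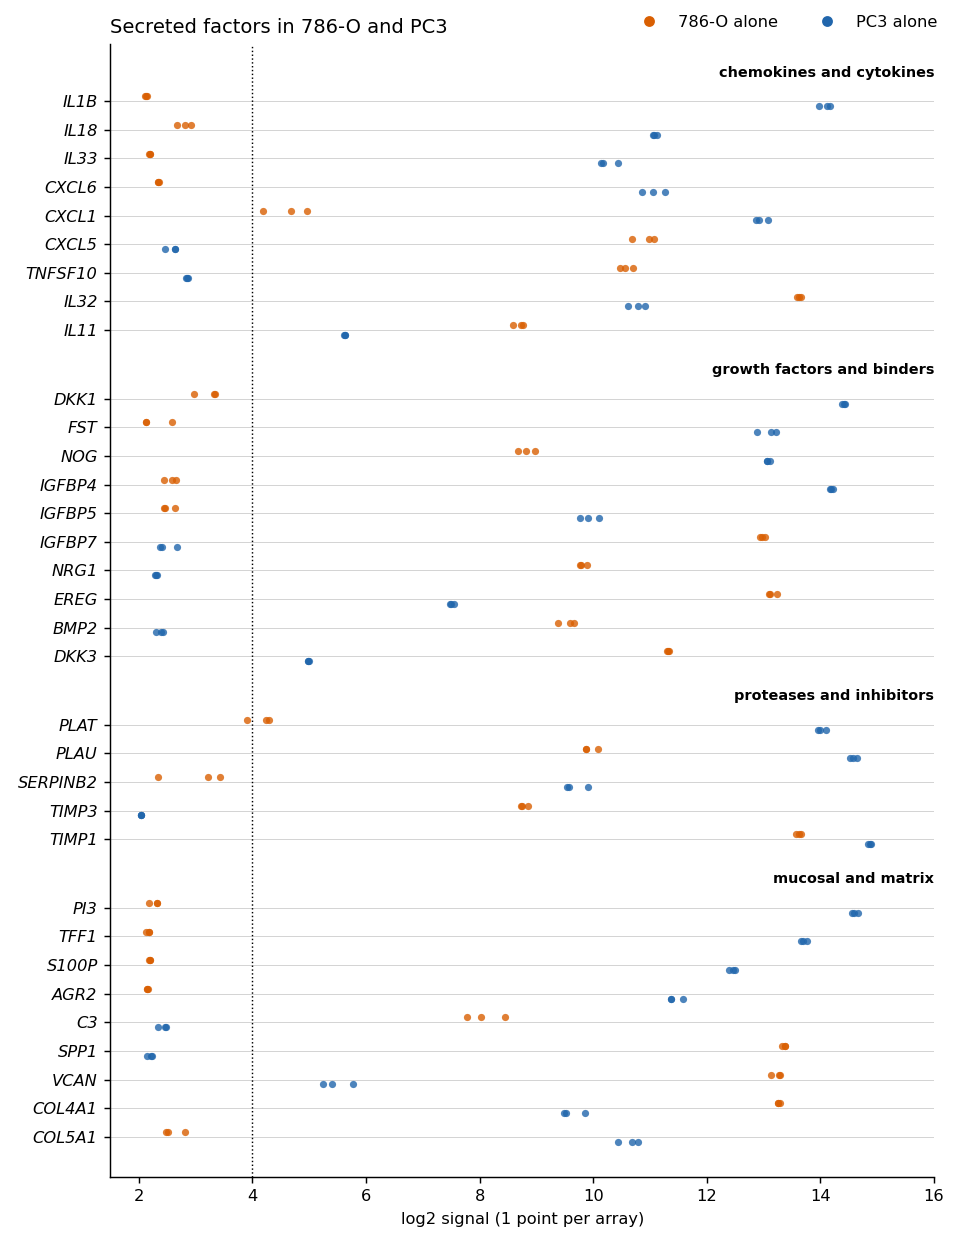
Log2 signal of secreted factors on each array, 786-O (upper point row of each gene, orange) and PC3 (lower point row, blue), grouped by gene list, with the floor of 16 dotted. IL1B, PI3, TFF1, DKK1 and IGFBP4 lie under the floor on all 786-O arrays and between 12848 and 25783 on the PC3 arrays. SPP1, IGFBP7 and CXCL5 lie under the floor on all PC3 arrays and over it on all 786-O arrays, at signals below that range.

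Among the 10 genes named for the highest signal in 786-O while PC3 lay under the floor on all 3 arrays was UCHL1, a ubiquitin hydrolase of neurons, with 24723, 26162 and 25567 in 786-O and 5.23, 5.62 and 7.22 in PC3 (at least 1592-fold). CA2, cytosolic carbonic anhydrase, had 14488, 13778 and 14516 in 786-O and 12.3, 12.2 and 8.696 in PC3 (at least 891-fold), and BCAT1, which starts the breakdown of branched-chain amino acids, 8429, 8290.1 and 8288 in 786-O and 4.77, 4.75 and 4.82 in PC3 (at least 521-fold). SLFN11, which blocks stressed replication forks and is known for marking sensitivity to DNA-damaging drugs, had 8654, 7778 and 9522 in 786-O and 4.42, 4.42 and 4.41 in PC3 (at least 539-fold). LIN28B, the RNA-binding protein that blocks maturation of let-7 microRNAs, had 8036, 7345 and 7500.4 in 786-O and 5.69, 5.74 and 7.29 in PC3 (at least 476-fold). RFLNB and PTGFRN were at least 699.7 and 596-fold higher in 786-O.

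In the other direction the 10 genes were PI3, DKK1, IGFBP4, IL1B, TFF1 and CDH11, which are given above, and PRSS3, TSPYL5, ADIRF and C5orf46. PRSS3, a trypsinogen, had 5.99, 4.802 and 4.45 in 786-O and 13929.9, 14511 and 14599.7 in PC3 (at least 896-fold), and trypsinogen genes are near-identical, so the probe set may read more than 1 of them. TSPYL5 had 4.797, 5.13 and 5.16 in 786-O and 12198, 12844 and 11956 in PC3 (at least 770.4-fold), ADIRF, a regulator of fat cell differentiation, was at least 694-fold higher and C5orf46 at least 584-fold.

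Among genes whose mean was at or over the floor in both lines, the largest differences in favour of 786-O began with the kinase STK26, with 10954, 10715 and 10988 in 786-O and 22.4, 21.4 and 20.02 in PC3 (9.002 ± 0.08). NEFM, a neurofilament chain, had 28294, 27244 and 27776 in 786-O and 68.6, 102 and 44.1 in PC3 (8.68 ± 0.27). MT1E, a metal-binding metallothionein with near-identical relatives, had 14461, 14452 and 14484 in 786-O and 73.03, 73.01 and 72.9 in PC3 (7.63 ± 0.05). UGT8 (7.58), which makes galactosylceramide, the cholesterol exporter ABCA1 (7.26), APOL1 (7.10), known from kidney disease, the aldose reductase AKR1B1 (6.97), the IL-4 signalling factor STAT6 (6.95), the NOTCH glycosyltransferase LFNG (6.87) and IGSF3 (6.77) followed, with VCAN and HOXB7 (6.53). In favour of PC3 the same rule named the hair keratin KRT81, which has near-identical relatives, with 39.6, 12.5 and 12.4 in 786-O and 42126, 42502 and 44811 in PC3 (-11.20 ± 0.42). The PC3 arrays lay far apart from all 786-O arrays, but 2 of the 3 786-O arrays were under the floor, so that neither its exact difference nor its rank can be read. PDLIM4 (-7.69), SLC4A11 (-7.33), GPR153 (-6.78), LINC00857 (-6.64) and TTYH2 (-6.63) followed with the retinoic acid-binding protein CRABP2 (-6.49), beside PLAT, CXCL1, S100A4, COL13A1 and COL5A2.

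Markers of other cells were at the bottom of the scale. None of 12 myoblast markers, MYOD1, MYOG and DES among them, passed the filter in the cultures grown alone, and they reached 9.32 at most. Of 11 leukocyte and endothelial markers, 10 did not pass and reached 5.21 at most, PTPRC, VWF and CDH5 among them. The exception was PECAM1, the adhesion molecule CD31, with 4.56, 4.59 and 5.404 in 786-O and 2536, 3050.4 and 3109 in PC3 (at least 180.4-fold).

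The 6 co-culture arrays share no sample with the cultures grown alone, and the 786-O and PC3 groups among them were compared in a fit of their own. There 4030 of 12486 genes (32.3%) were called. 3449 were called in the same direction in both comparisons, which is 85.5% of those called in the cultures alone and 85.6% of those called in co-culture, and 1 was called in opposite directions. Of the 4032 genes called in the cultures alone, 4018 kept their sign. CTNNA1 differed by 11.67 ± 0.13 in co-culture, HOXD13 by 9.48 ± 0.15, SALL1 by 10.45 ± 0.13, CA9 by -7.89 ± 0.18, EPCAM by -9.06 ± 0.29 and IL1B by -12.64 ± 0.11. For each of these genes the lower line lay under the floor in the cultures alone, and for CTNNA1, CA9 and EPCAM also in co-culture. Their directions can be compared between the settings, but not the exact sizes. The array of 786-O with myoblasts replicate 2 stood apart in the ratio of 3′ to 5′ signal of ACTB (7.22, against 3.08 to 4.24 on the other 11 arrays), a sign of RNA quality. Without it, 3987 genes were called in co-culture, and 3472 were called in the same direction in both comparisons. A direct test of the line difference alone against that in co-culture found 691 genes (5.53%); leaving out 1 array moved this count between 336 (without PC3 with myoblasts replicate 1) and 1265 (without 786-O with myoblasts replicate 2), and a replicate block gave 484. The co-culture arrays come from the same 2 lines, so they repeat the measurement and not the choice of lines. In each of the renal lineage, HOX, epithelial and mucosal lists every member called alone kept its sign. The same held for 4018 of all 4032 genes called alone, so it is not particular to these lists.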

How the data were processed

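RNA was hybridised to 12 arrays of the type HG-U133 Plus 2, which carry 54675 probe sets, and 6 arrays entered the main comparison. The deposited values are linear signal intensities by probe set; MAS5 is the only tool the submitters' processing notes name, without a version, and no step between arrays is stated. The authors' deposited table also gave a signed fold score and a p-value for the pair of lines. Both were recomputed from the intensities as a fold of linear means and an unadjusted equal-variance test, and they were used only as an alternative.

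Log2 of the signals was taken with no added constant. Control probe sets (62), probe sets without a symbol (13164) and those with several (1522) were left out. The gene identifiers of 38545 of 39927 were found in the RefSeq gene table, and 7383 symbols were updated. Probe sets with a mean over the 6 arrays above 6.175, the median probe set, passed the filter, and the one with the highest mean stood for its gene. For 31 called genes another probe set differed at least 2-fold the other way.

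limma 3.58.1 in R 4.3.3 with an intensity trend gave two-sided p-values, adjusted by the Benjamini-Hochberg method over 12486 genes. The number of arrays limits the precision. Simulated data with known changes were used to test the fit. Members, the 21 lists, the floor of 16 and all tests were chosen with earlier results of these data known. The genes named are, per line, the 12 with the largest difference and a mean of at least 16 in both lines, the 10 with the highest signal while the other line lay under the floor, up to 6 called members per list and direction with the smallest p, every measured member of the lineage, carcinoma marker, HOX, mutation and HIF regulator lists, and neighbours of CTNNA1, CDKN2A and VHL. 17 genes outside this rule were named after their values were seen. Genes of the sex chromosomes that identify sex, and some members of the lists and their neighbours, are not reported here; the counts per list leave them out. The alternatives tried were other scalings, filters, constants, variance models, choices of probe set and thresholds, a replicate block and leaving out each array. Python 3.11.15 with pandas 2.3.3 and matplotlib 3.10.9 made the tables and plots.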

Additional observations from a re-analysis of the deposited data

Results flagged for a closer look

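The difference between the lines was tested directly in the cultures grown alone against the co-cultures. A change was found for 30 of the 226 genes named (limma over 12 arrays, adjusted p under 0.05), against 691 of all 12486 genes (5.53%). Most named genes were chosen for the size or p-value of their line difference, so they are not a sample of all genes. The value given is the line difference alone minus that in co-culture, in log2 units. All 30 kept their sign when any 1 of the 12 arrays was left out, but not all kept the call: 30 did without the co-cultured 786-O array that stood apart (replicate 2), 14 without co-cultured PC3 replicate 1, 15 without 786-O alone replicate 3, and 22 with a replicate block; these repeats were chosen after the data were seen. Only 13 kept the call whichever array was left out: ARNT2, IL6, IL1A, CXCL6, IL33, FGF1, IL11, BNIP3L, DDIT4, PLIN2, NEFM, TRPM8 and EGR1. Of the 30 line differences, 21 were larger in co-culture. The line difference of ARNT2, a relative of ARNT, turned round between the 2 settings (4.73, adjusted p = 2.11e-04). ARNT2 had 17.4, 17.7 and 14.96 in 786-O and 4.51, 4.598 and 4.47 in PC3 grown alone, against 26.9, 11.9 and 35.5 in co-cultured 786-O and 138, 179 and 171 in co-cultured PC3. Several of these signals lie near or under the floor of 16.

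In PC3-high secreted factors the values were 2.10 for IL6, 1.56 for CXCL6, 1.04 for IL33, 0.74 for AGR2, 0.69 for IL1B, 0.65 for SERPINB5, 1.21 for COL12A1 and -1.41 for FGF1. IL1A, which alone was not called and lay under the floor in both lines, had 3.01. In 786-O-high secreted factors they were 1.14 for IL11, 0.63 for IL32, 0.59 for COL4A1, -0.83 for VCAN and -1.01 for TNFSF10. IL6 thus differed by -1.83 alone and by -3.93 in co-culture. Among targets and regulators of HIF they were 0.40 for HIF1A, -0.54 for BNIP3L, -0.54 for DDIT4, -1.06 for PFKFB4 and -0.43 for PLIN2. Among the remaining genes they were -0.30 for NNMT, -2.84 for NEFM, 1.91 for ZEB2, -1.79 for TRPM8, 1.48 for ABCA1, -1.43 for EGR1, -0.73 for DDB2, 0.36 for CDKN1A, -0.66 for KRT8 and 0.42 for IRAK2. The mean of 786-O alone lay under the floor for CXCL6, IL33, AGR2, IL1B, SERPINB5 and FGF1, and that of PC3 alone for TNFSF10 and TRPM8. The values of these genes and of IL1A thus take in signals at which no level could be read. Groups of 3 arrays are too small for a test of single outlying arrays.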

How the results depend on the processing

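The number of genes called between the lines grown alone was 3372 to 5198 over 14 alternatives that changed scaling, low signals, variance model, probe set choice or test, and 3983 to 4022 when 1 array was left out. By construction it moved with the thresholds: with bright genes only (a filter at the 75th percentile, 7992 genes) it was 1524, 651 higher in 786-O and 873 higher in PC3; with no fold threshold 9934, 4918 and 5016; and with an adjusted p under 0.01 and 4-fold 1913, 905 and 1008. The co-culture comparison gave 8747 with no fold threshold, 4419 higher in 786-O and 4328 higher in PC3, and 3940 to 4076 without 1 array. Same-numbered arrays of the lines did not vary together (correlations of 0.005, 0.043 and -0.072), and the main fit did not pair them. Whether the numbers mark a shared culture or batch is not given in the labels, and these correlations cannot exclude it. A replicate block gave 4036 genes alone, 4037 in co-culture and 484 for the change of the line difference. That last count, 691, was the least stable: 336 to 1265 when 1 array was left out (144 to 575 positive, 188 to 703 negative), 1265 without co-cultured 786-O replicate 2 and 1087 without its replicate 3, and 187 positive values under the 75th percentile filter; the cause was not tested. Genes on in 1 line and under the floor in the other were 882, and 900 to 915 without 1 array. By the authors' deposited p-values, adjusted, 3839 genes were called, and their unadjusted p under 0.05 with 2-fold gave 3894, of which 3885 were called here. These and the count without genes under 16 in both lines, 3886, were added after the data were seen.

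Of 180 called genes named, 172 kept their direction and call in each of 19 alternatives in which they were measured, and none turned round; the changes of the thresholds are not among the 19, and 145 of the 180 were not measured under every one. AFDN, ARNT2, HAVCR1, HIF1A, MYC, REEP2, TWIST2 and WT1 lost the 2-fold difference or the adjusted p somewhere. HIF1A (-0.98) and MYC (0.98) did so without PC3 replicate 1, WT1 (0.73) with the mean of its probe sets, and HAVCR1 (0.46, adjusted p = 0.179) and TWIST2 (1.36, adjusted p = 0.0593) with signals under 16 set to 16. Levels under 16 could not be ordered, which limits every fold given as a lower bound.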

Other observations

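Median line differences varied among the chromosome arms. On 14q, which carries HIF1A, the median difference over 385 measured genes was -0.90, and 24 genes were called higher in 786-O and 167 higher in PC3, against 14.4% and 17.9% of all genes. On 18p the median was -0.94 over 54 genes (5 higher in 786-O and 26 higher in PC3), on 20p -0.81 over 110 genes, and on 11q -0.50 over 440 genes. Medians in the other direction stood on 9q, with 0.81 over 355 genes and 144 called higher in 786-O and 18 higher in PC3, on 10p with 0.82 over 122 genes, and on 2q, which carries the HOXD cluster, with 0.56 over 464 genes. The 3p arm, which carries VHL, PBRM1, BAP1 and SETD2, had a median of -0.20 over 322 genes, with 26 higher in 786-O and 60 higher in PC3. The same arms had medians of -0.78 (18p), -0.83 (14q), -0.74 (20p), -0.51 (11q), 0.90 (9q), 0.80 (10p), 0.57 (2q) and -0.19 (3p) between the lines in co-culture, on arrays that share no sample with these. Arms are those of the first alignment in the deposited table where its chromosome was that of the reference, and arms with under 50 genes were left out. No test was made of these medians.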
